A study of Arabidopsis thaliana with 8 samples.

Results

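YAB3, YAB5 and AGO7 are 3 genes of leaf polarity, the patterning that gives a leaf a lower (abaxial) and an upper (adaxial) side. They were followed here through a series of vegetative shoot tissues of Arabidopsis thaliana. They were chosen by name as the probe sets annotated to these symbols on the Affymetrix ATH1 array, and each of the 3 was measured by 1 probe set. All 3 were among the 9906 genes tested. The 4 groups, with 2 arrays each, were younger vegetative apices (Apex_5DAS), older vegetative apices (Apex_14DAS), leaves 1 and 2 while still expanding, taken at that same age (EL_14DAS) and mature, fully expanded leaves from day 35 after sowing (ML_35DAS). For the younger apices the titles give day 5, whereas the source names give day 7. Every sample was total RNA of the accession Landsberg erecta (Ler), wild type as far as the labels say, from soil-grown plants kept at 20 °C with 10 h of light a day (short days). Neither the number of plants in a sample nor whether the 2 arrays of a group came from separate plants is stated, so p-values measure only the spread between these arrays. The number of arrays, 2 a group, limits the precision.

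YABBY proteins are plant-specific transcription factors with a zinc finger and an HMG-like domain. YAB3 and YAB5 belong to the vegetative members of the family, which are transcribed on the abaxial side of young lateral organs and promote abaxial fate and blade outgrowth. They act partly through co-repressors of the LEUNIG and SEUSS kind. AGO7, also called ZIPPY, is the Argonaute protein that binds the microRNA miR390 and starts the production of trans-acting small interfering RNAs (tasiRNAs) from TAS3 transcripts. These tasiRNAs limit the auxin response factors ETTIN and ARF4, which specify abaxial fate, and plants without AGO7 pass early from juvenile to adult leaf form. AGO7 thus acts on the abaxial programme to which the YABBY genes belong, but as a limit on it.

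The values are deposited MAS5 intensities after scaling the arrays to equal trimmed means. Log2 values are log2(intensity + 7.7), where 7.7 is the pseudocount, and changes between groups are differences of these values from limma with Benjamini-Hochberg adjustment over all genes and a threshold of 0.05. Folds are taken from these log2 values, so the pseudocount is part of them. The array stands for a whole sample, so fewer cells of a type and less RNA per cell cannot be told apart. One array stood apart in its ribosomal RNA control before any result. Apex_5DAS replicate 1 had a deposited 25S ribosomal RNA control signal of 201, against 1.01 to 28.1 on the other 7 arrays, and the younger apices had the lowest agreement between replicates (Pearson r 0.908 across genes, which are not independent replicates, against 0.951 to 0.978 in the other groups). Where leaving it out moves a value of the 3 genes by over 1.5 times, the value without it is given. The deposited actin controls also differed between arrays. The 5' signal was 315 and 176 in younger apices and 174 and 139 in older apices. In expanding leaves it was 387 and 257, and in mature leaves 410 and 151. The 3' signal was 1854 and 1117, 1263 and 979, 1008 and 892, and 1389 and 1528 in the same order. Any part of RNA quality in the results was not tested.

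**Figure D1:**
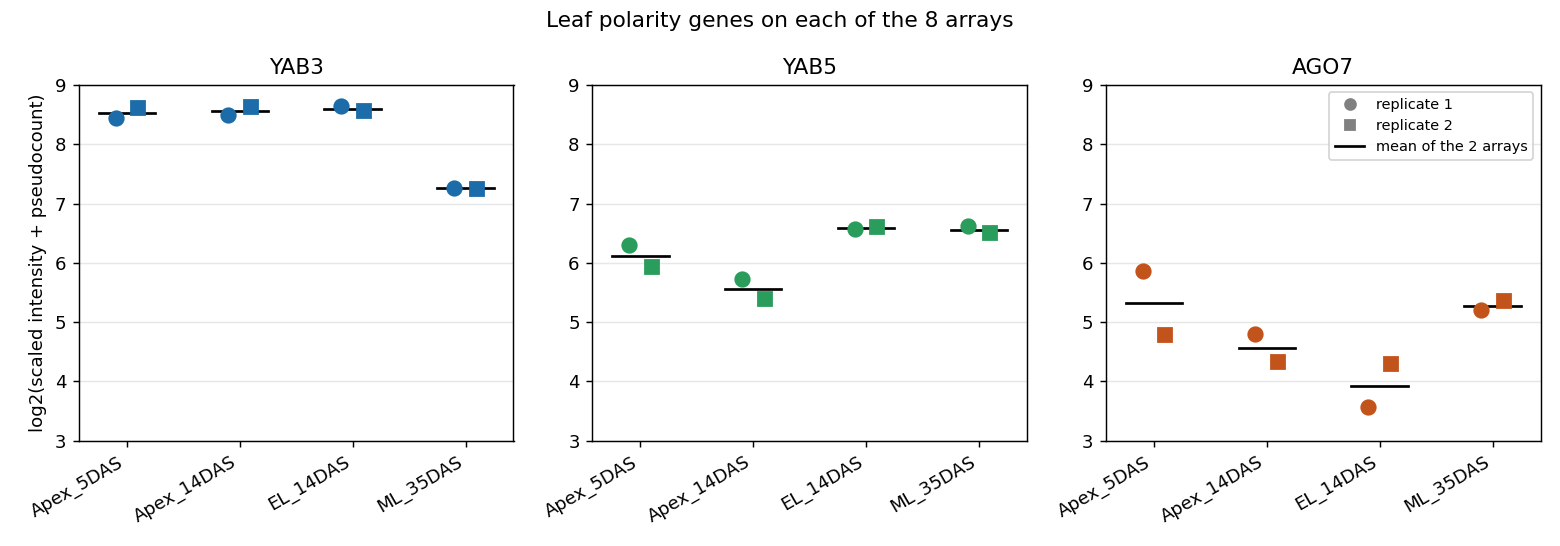
Log2(scaled intensity + pseudocount) of YAB3, YAB5 and AGO7 (y axis) on each array of the 4 groups (x axis), with circles for replicate 1, squares for replicate 2 and a bar for the mean of the 2 arrays. YAB3 was low in mature leaves alone. By group mean YAB5 was lowest in older apices and AGO7 in expanding leaves. Neither differed past the threshold from its next lowest group (limma adjusted p = 0.25 and 0.45). Levels of different probe sets are not comparable with each other.

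YAB3 (AT4G00180, chromosome 4) was level through the younger apex, the older apex and the expanding leaf and was then 2.53-fold lower in the mature leaf. Its intensity was 341 and 385 on the younger-apex arrays, 353 and 387 on the older-apex arrays, 391 and 368 on the expanding-leaf arrays, and 146 and 144 on the mature-leaf arrays. The 6 arrays of growing tissue therefore lay within a narrow band, and both mature-leaf arrays lay far below all of them. On each array of growing tissue the probe set ranked between percentile 88.1 and 89.7 of all probe sets, and in mature leaves it was at percentiles 74.8 and 74.2, so the transcript was lower there but still well inside the measured range.

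The mean log2 value of YAB3 was 8.53 ± 0.12 (SD, n = 2) in younger apices, 8.56 ± 0.09 in older apices, 8.60 ± 0.06 in expanding leaves and 7.26 ± 0.01 in mature leaves. YAB3 fell by 1.34 on the log2 scale (SE 0.19, limma adjusted p = 0.0016) from expanding to mature leaves, a comparison in which 2 of the 3 polarity genes and 21.4% of all genes passed (6.93% higher and 14.5% lower). The arrays of these groups did not overlap for YAB3 and AGO7, as was so for 70.5% of all genes. Only 6.14% of genes had a change more negative than that of YAB3 in this comparison. Against younger apices the change of YAB3 in mature leaves was -1.28 (SE 0.19, adjusted p = 0.00094). Here 1 of the 3 and 32.3% of all genes passed (11.0% higher and 21.3% lower), and arrays did not overlap for 2 of the 3 and for 68.2% of all genes. Against older apices the change was -1.30 (SE 0.19, adjusted p = 0.00076). Here 2 of the 3 and 32.6% of all genes passed (10.3% higher and 22.2% lower), and arrays did not overlap for all 3 and for 74.2% of all genes. These 3 contrasts share the same mature-leaf arrays.

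Among the 3 groups of growing tissue YAB3 did not differ beyond the spread between arrays. The change was 0.03 (95% interval -0.40 to 0.45) between older and younger apices, 0.04 (-0.39 to 0.46) between expanding leaves and older apices, and 0.06 (-0.36 to 0.49) between expanding leaves and younger apices. The first and the last were -0.059 and -0.021 without Apex_5DAS replicate 1. Each of these intervals leaves out a change as large as 1 log2 unit in either direction, but smaller changes remain possible. The 3 mature-leaf calls of YAB3 passed with each of the 8 arrays left out in turn and under each of the 10 other alternatives. With equal array medians the changes against expanding leaves, younger apices and older apices were smaller, at -1.002, -0.88 and -0.80 (adjusted p = 0.0066, 0.0073 and 0.012). The scaling matters for the size, because the median gene itself differed by -0.27 between mature and expanding leaves. Relative to that median YAB3 changed by -1.07, and the relative change was -1.04 with equal array medians and -1.21 with quantile normalization.

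YAB5 (AT2G26580, chromosome 2), the other YABBY gene, behaved differently: it was lowest in the older apex and 2.04-fold higher in the expanding leaves of the same day, and it did not fall in the mature leaf. Its intensity was 71.2 and 53.3 on the younger-apex arrays, 45.5 and 34.1 on the older-apex arrays, 87.1 and 89.3 on the expanding-leaf arrays, and 90.6 and 83.0 on the mature-leaf arrays. All 4 leaf arrays lay above all 4 apex arrays, and the expanding- and mature-leaf arrays overlapped. The share of all genes with leaf and apex arrays so separated was not counted. For single pairs of a leaf and an apex group, arrays did not overlap for 48.1% to 74.2% of genes. The probe set ranked between percentiles 42.1 and 65.4 on the 8 arrays, in the middle of the distribution.

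The mean log2 value of YAB5 was 6.58 ± 0.02 (SD, n = 2) in expanding leaves, 6.56 ± 0.08 in mature leaves, 6.12 ± 0.26 in younger apices and 5.56 ± 0.25 in older apices, in that order from highest to lowest. YAB5 rose by 1.03 on the log2 scale from older apices to expanding leaves (SE 0.25, limma adjusted p = 0.038), a comparison in which 1 of the 3 polarity genes and 6.30% of all genes passed (2.83% higher and 3.47% lower). Arrays of these groups did not overlap for YAB5 and AGO7, and for 54.6% of all genes. A more positive change than that of YAB5 was found in few genes, since 96.2% of genes lay below it. It was also higher in mature leaves than in older apices, by 1.00 (SE 0.25, adjusted p = 0.012). The 2 results share the older-apex arrays. Without Apex_14DAS replicate 2, the array on which YAB5 was lowest, the changes were 0.85 and 0.83 and neither passed (adjusted p = 0.28 and 0.094). The rise from older apices to expanding leaves was lost without any of the 6 arrays other than those of younger apices, without a filter on low values (adjusted p = 0.072) and without the intensity trend (adjusted p = 0.061). The mature-leaf call was lost without 3 of the 8 arrays: that one and either mature-leaf array (adjusted p = 0.09 and 0.059).

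The neighbours in the order of YAB5 levels did not differ past the threshold. Mature leaves and expanding leaves differed by -0.02 (95% interval -0.57 to 0.53). Expanding leaves were above younger apices by 0.47 (-0.08 to 1.02, adjusted p = 0.29), and mature leaves by 0.44 (-0.10 to 0.99, adjusted p = 0.19). These values were 0.65 and 0.63 without Apex_5DAS replicate 1 and 0.28 and 0.26 without its replicate 2, and none of the 4 passed. With equal array medians the mature-leaf value became 0.82 and passed (adjusted p = 0.037). Older apices were below younger apices by a change of -0.56 (-1.11 to -0.01), with an unadjusted p of 0.047 and an adjusted p of 0.25. That difference was -0.37 without Apex_5DAS replicate 1 and -0.74 without its replicate 2, and the arrays of these groups did not overlap, as was so for 47.1% of genes.

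AGO7 (AT1G69440, chromosome 1) differed from both: it was lowest in the expanding leaf and 2.54-fold higher in the mature leaf. Its intensity was 50.8 and 20.0 on the younger-apex arrays, 20.0 and 12.3 on the older-apex arrays, 4.11 and 11.9 on the expanding-leaf arrays, and 29.0 and 33.1 on the mature-leaf arrays. The mature-leaf arrays lay above every older-apex and expanding-leaf array, while the 2 younger-apex arrays fell on either side of them. AGO7 was a weakly measured gene. Both expanding-leaf arrays and Apex_14DAS replicate 2 were below the percentile 30 value of their own array, which was the filter level, and the probe set ranked at percentiles 12.7 and 24.8 in expanding leaves. Detection calls were not used here, so a level near the pseudocount may be no more than background.

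The mean log2 value of AGO7 was 5.33 ± 0.76 (SD, n = 2) in younger apices, 5.27 ± 0.11 in mature leaves, 4.56 ± 0.33 in older apices and 3.93 ± 0.52 in expanding leaves. AGO7 rose by 1.35 on the log2 scale from expanding to mature leaves (SE 0.43, limma adjusted p = 0.048). This is the opposite direction to YAB3 in the same comparison, and 96.7% of genes had a lower change. The fold is not fixed, since the change was 1.96 with the pseudocount at percentile 5 of all values and 0.73 with it at percentile 40 (adjusted p = 0.062). The call also ended without a filter (adjusted p = 0.082) and without any 1 of the 6 arrays other than those of younger apices (adjusted p from 0.06 to 0.23). Without EL_14DAS replicate 1, the array with the lowest AGO7 value, the change was 0.98.

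No other difference of AGO7 passed the threshold. Mature leaves exceeded older apices by 0.72 (95% interval -0.23 to 1.66, adjusted p = 0.22), and expanding leaves differed from older apices by -0.63 (-1.58 to 0.32, adjusted p = 0.45). Between older and younger apices the difference was -0.77 (-1.72 to 0.18, adjusted p = 0.35). It was -0.23 without Apex_5DAS replicate 1, the array that stood apart, and -1.31 without replicate 2. Expanding leaves were below younger apices by a change of -1.40 (-2.35 to -0.45, adjusted p = 0.069). This difference moved with the same array, where AGO7, with the pseudocount added, was 2.11-fold above its replicate. The difference was -0.86 without Apex_5DAS replicate 1 and -1.94 without replicate 2. Mature leaves and younger apices differed by -0.06 (adjusted p = 0.93), by 0.48 without Apex_5DAS replicate 1 and by -0.60 without replicate 2, so the order of these groups is not settled. Whether the ribosomal RNA signal of that array has a part in its AGO7 value was not tested.

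Over all 4 groups together, the F test of limma passed for YAB3 (F 23.5, adjusted p = 0.0012) and YAB5 (F 7.59, adjusted p = 0.023) and did not pass for AGO7 (F 4.84, adjusted p = 0.062), in a background where 35.3% of genes passed. YAB5 passed this test without either younger-apex array but not without any of the other 6 arrays (adjusted p from 0.052 to 0.14). AGO7 passed with equal array medians (adjusted p = 0.045), with quantile normalization (0.042) and without Apex_5DAS replicate 2 (0.013). In the comparison of older with younger apices none of the 3 genes passed with limma, YAB5 had an unadjusted p below 0.05, and 2.56% of all genes passed (1.18% higher and 1.38% lower). None of the 3 passed between expanding leaves and younger apices either, where AGO7 had an unadjusted p below 0.05 and 9.75% of all genes passed (4.87% higher and 4.89% lower). Arrays of these latter groups did not overlap for YAB5 and AGO7, and for 48.1% of all genes.

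**Figure D2:**
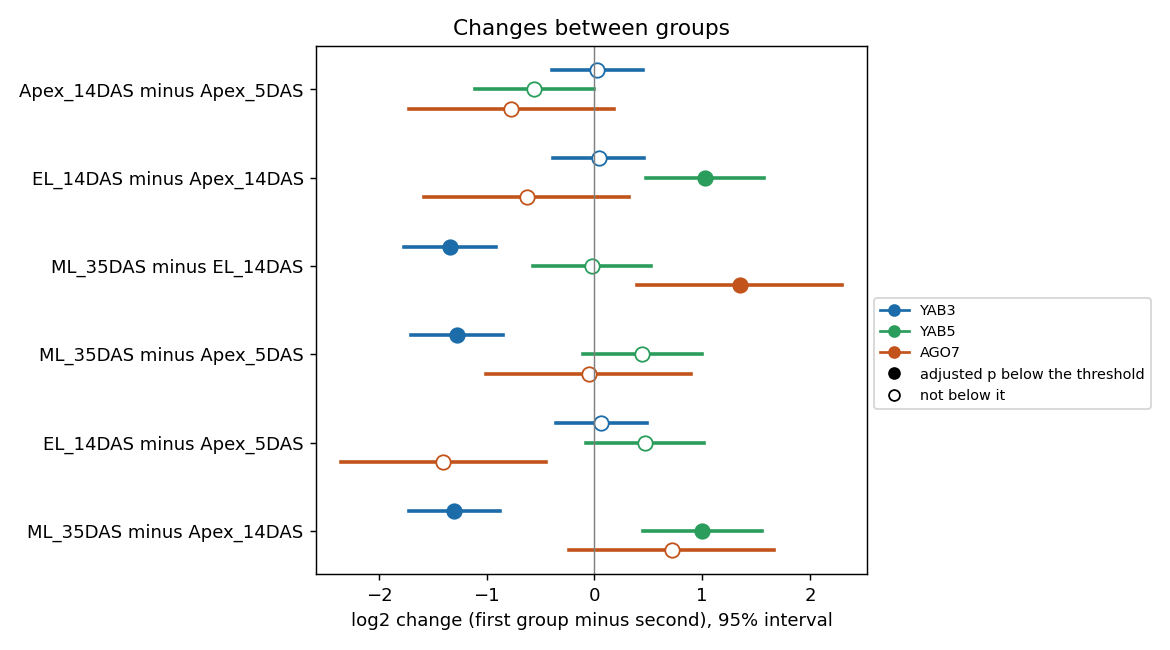
Log2 changes (x axis, first group minus second) of YAB3 (blue), YAB5 (green) and AGO7 (orange) for the 6 pairs of groups (y axis), with 95% intervals from limma; filled points have an adjusted p below 0.05. From expanding to mature leaves YAB3 changed by -1.34 and AGO7 by 1.35, while YAB5 changed by -0.02.

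Because these courses differ, the genes were also set against each other within each array, where a scaling factor common to the array nearly cancels. The log2 ratio of each pair of genes was centred on its mean over the 8 arrays, since levels of different probe sets cannot be compared. The test was an exact permutation test over the 105 ways of dividing the 8 arrays into 4 pairs, for which the smallest possible p is 0.0095, and it was chosen after the values were seen, so it restates the courses above and is no independent support. It asks whether arrays of a group lie closer than other pairs of arrays, and tests no order of the groups. Adjusted p-values are over the 3 pairs of genes. These 3 tests are not independent of each other, since each log2 ratio follows from the others.

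YAB5 relative to YAB3 was -0.11 and -0.66 on the younger-apex arrays, -0.73 and -1.21 on the older-apex arrays, -0.04 and 0.08 on the expanding-leaf arrays, and 1.39 and 1.29 on the mature-leaf arrays. Both mature-leaf arrays lay above all others, while the nearest younger- and older-apex arrays (-0.66 and -0.73) were close to each other. The ratio differed between groups (exact p = 0.0095, adjusted p = 0.029). With quantile normalization the exact p was 0.019 and the adjusted p 0.057. Group means of the ratio ran from -0.97 ± 0.34 (SD, n = 2) in older apices to 1.34 ± 0.07 in mature leaves.

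AGO7 relative to YAB3 was 0.89 and -0.36 on the younger-apex arrays, -0.24 and -0.84 on the older-apex arrays, -1.61 and -0.80 on the expanding-leaf arrays, and 1.40 and 1.57 on the mature-leaf arrays. Both mature-leaf arrays were above all others. The permutation test, which tests no order, gave an exact p of 0.038 and an adjusted p of 0.057 (adjusted p = 0.043 with equal array medians). AGO7 relative to YAB5 was -1.57 and -0.87 in expanding leaves and between 0.01 and 1.00 on the other 6 arrays. For this ratio the same test gave an exact p of 0.057 and an adjusted p of 0.057. With the pseudocount at percentile 40 the adjusted p of each of these 2 ratios was 0.048. Neither of these ratios passed in the setting used throughout. Their expanding-leaf values rest on AGO7 intensities below the filter level, so their size depends on the pseudocount.

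**Figure D3:**
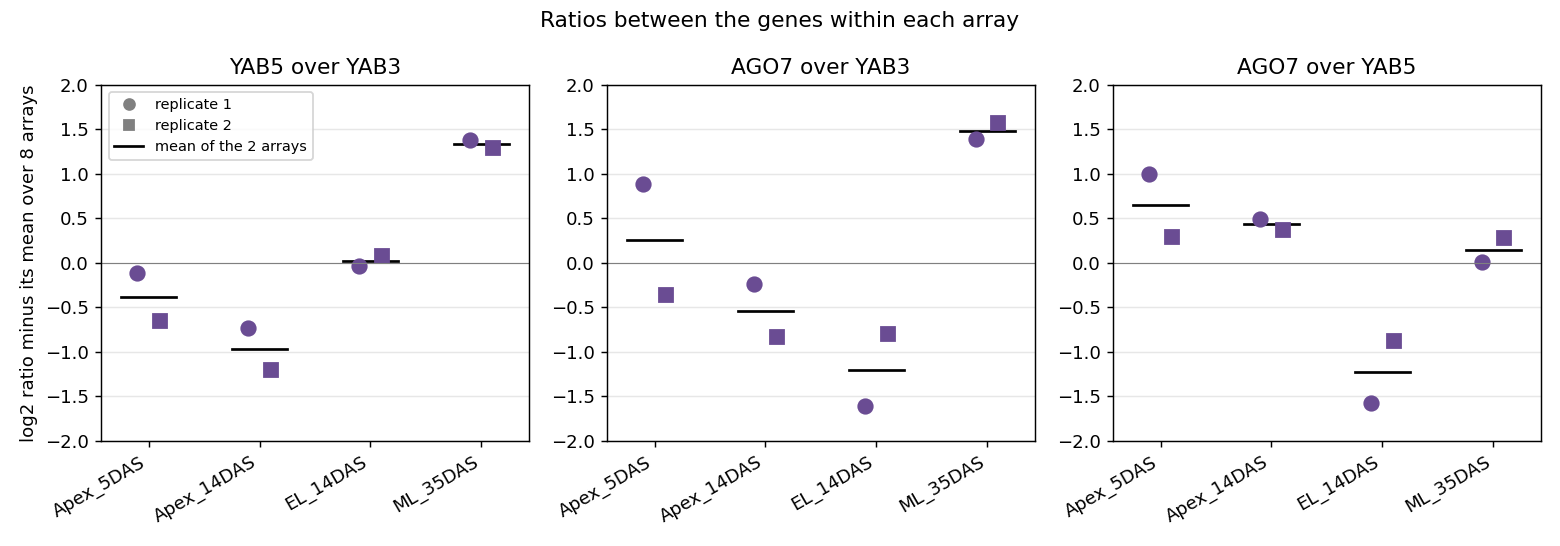
Log2 ratio of 2 genes on the same array, minus its mean over the 8 arrays (y axis), for each array of the 4 groups (x axis), with circles for replicate 1, squares for replicate 2 and bars for the mean of 2 arrays. YAB5 over YAB3 was at 1.39 and 1.29 in mature leaves, and AGO7 over YAB5 was -1.57 and -0.87 in expanding leaves.

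Other genes of leaf polarity were few, because many probe sets carried no gene name in the annotation used. Of the 6 YABBY genes listed, 3 were tested, and beside YAB3 and YAB5 this was INO, which acts in the outer integument of the ovule. INO was measured at 4.49 to 33.4 and passed in no comparison (F test adjusted p = 0.38). The 7 other abaxial regulators (KANADI and auxin response factor genes) and the 5 SPL genes of vegetative phase were not analysed here.

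Of 11 adaxial regulators 1 was tested, PHV (PHAVOLUTA), a class III homeodomain-leucine zipper gene that specifies the upper side of the leaf. Its intensity was 153 and 308 on the younger-apex arrays, 288 and 324 on the older-apex arrays, 157 and 222 on the expanding-leaf arrays, and 108 and 94.8 on the mature-leaf arrays. Mature leaves were lowest, and the first younger-apex array was far below its replicate. PHV was 2.88-fold lower in mature leaves than in older apices (log2 change -1.53, SE 0.31, limma adjusted p = 0.0049). Against younger apices the change was -1.05 (adjusted p = 0.028), but it did not pass without Apex_5DAS replicate 2 (-0.56, adjusted p = 0.11), without either mature-leaf array (up to 0.14), with equal array medians (0.11) or with only the 2 groups compared (0.061). From expanding to mature leaves, where YAB3 fell, PHV changed by -0.84 and did not pass (adjusted p = 0.079).

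Among 9 genes of blade outgrowth, 1 was tested: JAG (JAGGED), a zinc finger gene that promotes growth of the blade margin. Its intensity was 46.4 and 46.7 in younger apices, 40.1 and 41.2 in older apices, 19.2 and 13.6 in expanding leaves, and 4.33 and 2.78 in mature leaves. JAG was lower in mature leaves than in younger apices by a log2 change of -2.27 (SE 0.30, adjusted p = 0.00047) and than in older apices by -2.11 (adjusted p = 0.00065). With mature-leaf levels below the pseudocount these sizes are not fixed: -3.37 and -1.25 against younger apices with the pseudocount at percentile 5 and 40. From younger apices to expanding leaves JAG changed by -1.18 (adjusted p = 0.034), where YAB3 changed by 0.06, but the call was lost without each of the 8 arrays in turn. From expanding to mature leaves it changed by -1.09 (adjusted p = 0.03), a call lost without 6 of the 8 arrays, with equal array medians (adjusted p = 0.053) and with quantile normalization (0.14). JAG passed the filter through its apex arrays alone, so its calls of lower values than in apices are no independent support. Both expanding-leaf and both mature-leaf arrays were below their filter level. The change from expanding to mature leaves therefore depends on the pseudocount: -1.90 and -0.49 with it at percentile 5 and 40. All 4 apex arrays lay above both expanding-leaf arrays, and these above both mature-leaf arrays. The share of all genes with this order was not counted, and arrays of the 2 leaf groups alone did not overlap for 70.5% of genes.

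Of 13 genes of tasiRNA and microRNA machinery 1 was tested, SE (SERRATE), a zinc finger protein of microRNA processing. SE was measured at 93.3 to 159 and did not pass in any comparison (F test adjusted p = 0.23). SEU (SEUSS), 1 of 5 listed co-repressor partners of YABBY proteins, was measured at 163 to 265 and did not pass either (F test adjusted p = 0.78). Its mature-minus-expanding change was 0.24, against -1.34 for YAB3. AGO8, the other named Argonaute of 10, reached at most 12.7 and did not pass the filter.

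A further list of 5 genes, added after the annotation was read, held regulators of leaf shape and of microRNA processing. From expanding to mature leaves 2 of the 5 fell, as did 14.5% of all genes. The median change was -0.31 over the list against -0.27 over all genes. AN (ANGUSTIFOLIA), which sets leaf width, changed by -0.84 (adjusted p = 0.023), and PGY1, a ribosomal protein gene with a role in adaxial fate, by -0.75 (adjusted p = 0.022). Both were lost with equal array medians (adjusted p = 0.13 and 0.29) and without several single arrays, 4 for AN and 3 for PGY1. Against younger apices, AN was lower in mature leaves by a change of -1.38 (adjusted p = 0.0012) and TCP15, a class I TCP growth regulator, by -1.60 (adjusted p = 0.0024), and both calls passed without each array in turn. AN also passed against older apices (-1.17, adjusted p = 0.0028), as did PGY1 (-0.73, adjusted p = 0.016), the latter not without 4 of the 8 arrays nor with equal array medians (-0.21, adjusted p = 0.59). TCP15 also passed from younger apices to expanding leaves (-1.29, adjusted p = 0.019), though not without 2 of the arrays (adjusted p up to 0.14). DDL and TGH, which take part in microRNA processing, did not pass in any of the 6 comparisons (F test adjusted p = 0.17 and 0.33).

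**Figure D4:**
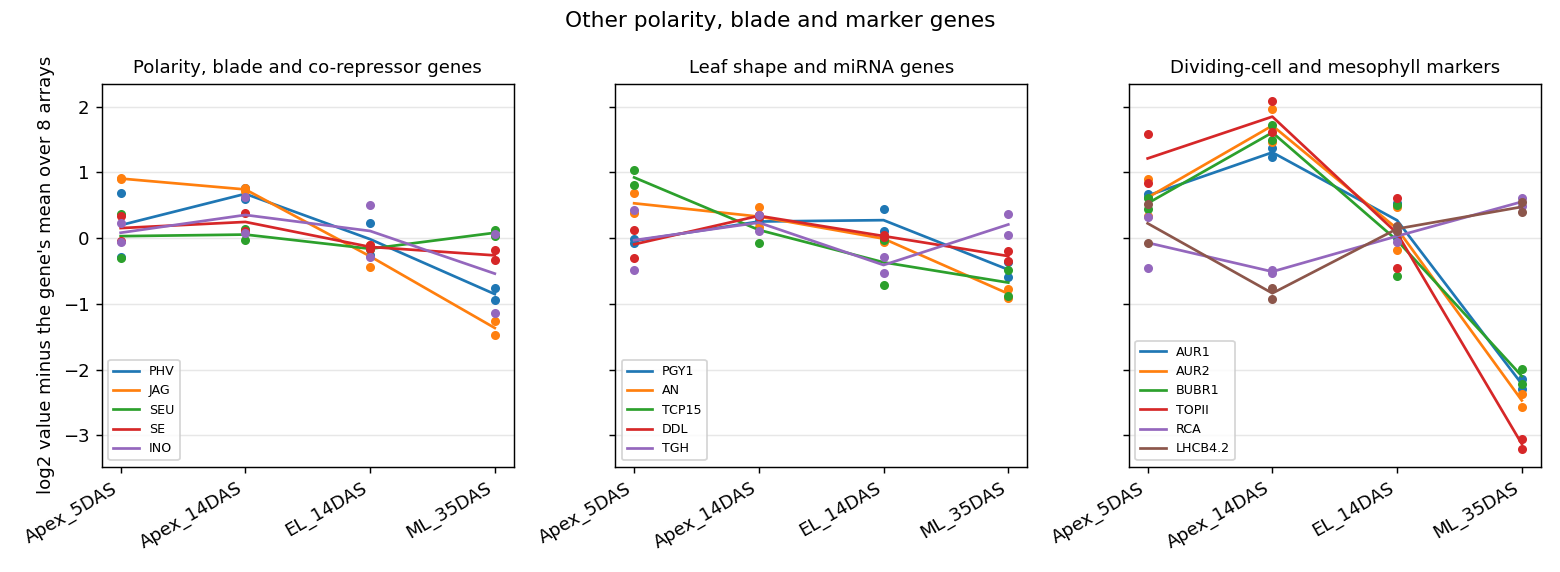
Log2 values of other polarity, blade, leaf shape and marker genes minus each gene's mean over the 8 arrays (y axis) in the 4 groups (x axis), with dots for arrays and lines through group means. The 4 dividing-cell genes changed by -3.20 to -2.06 from expanding to mature leaves, sizes that depend on the pseudocount. By group mean RCA and LHCB4.2 were lowest in older apices. RCA did not differ past the threshold between older and younger apices (limma adjusted p = 0.35).

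The tissue labels were set against marker genes. Of 12 meristem and boundary markers 2 were named, CLV3 and UFO, and both stayed below the filter, at no more than 13.3 and 16.1, so the meristem content of the apices could not be read from them. The 4 named of 11 dividing-cell markers, the kinases AUR1 and AUR2, the checkpoint gene BUBR1 and the topoisomerase TOPII, had a summed intensity of 699 to 931 in younger apices, 1403 to 1433 in older apices, 377 to 654 in expanding leaves and 50.1 to 57.2 in mature leaves. From younger to older apices none of the 4 passed (median change 0.87, limma adjusted p from 0.09 to 0.37). All 4 fell from expanding to mature leaves (median change -2.55), with YAB3 and with 14.5% of all genes. BUBR1 (2.51 and 1.01) and TOPII (7.06 and 8.81) were near or below the pseudocount in mature leaves, and their sizes depend on it: setting it at percentile 5 or 40 of all values, the change of BUBR1 was -3.53 and -1.04 and that of TOPII -3.92 and -2.21. All 4 also fell from older apices to expanding leaves (median -1.60), where YAB3 changed by 0.04; leaving out 1 array ended the call for AUR2 in 2 of 8 cases and for the others in 5 of 8, with adjusted p-values reaching 0.21. From older apices to expanding leaves 3.47% of all genes fell. The part of dividing cells in the level of YAB3 was not tested.

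The 2 named of 10 mesophyll markers, RCA (Rubisco activase) and LHCB4.2 (a light-harvesting protein), had a summed intensity of 7663 to 12404 in younger apices, 5877 to 6256 in older apices, 9674 to 10139 in expanding leaves and 12884 to 14145 in mature leaves. Both, like YAB5, were higher in mature leaves than in older apices, by 1.06 and 1.31 (adjusted p = 0.0084 and 0.0016). In that comparison 10.3% of all genes passed as higher. LHCB4.2 also rose with YAB5 from older apices to expanding leaves (0.98, adjusted p = 0.029) and was lower in older than in younger apices (-1.06, adjusted p = 0.036). The first call was lost without 6 of the 8 arrays and the second without 7, and both were lost with equal array medians (adjusted p = 0.063 and 0.09). The call of RCA from older apices to mature leaves was lost with quantile normalization, where the change was 0.30 (adjusted p = 0.076), and without either older-apex array or ML_35DAS replicate 1 (adjusted p up to 0.071). The share of green tissue in the YAB5 values was not tested. The root markers EXPA7 and EXPA18, 2 of 6, summed to 10.8 to 56.0, and EXPA18 was lower in mature leaves than in younger apices (-1.63, adjusted p = 0.012), a call lost without Apex_5DAS replicate 1 (-1.21, adjusted p = 0.069) and without ML_35DAS replicate 2 (-1.34, 0.091). EXPA18 passed the filter through its apex arrays alone, so that call is no independent support. Its mature-leaf intensities were 8.34 and 3.04, near or below the pseudocount. With the pseudocount at percentile 5 and 40 the change was -2.42 and -0.88. WRKY53, the 1 named of 6 markers of ageing leaves, was measured at 21.0 to 66.5 and passed in no comparison. Of 7 vascular and 6 floral markers none was analysed here.

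For each of the 3 genes, the 5 genes most like it were taken by Pearson r of log2 values over the 8 arrays among 4446 genes whose group means spanned at least 1 log2 unit. These are descriptions over 4 groups of 2 arrays that share their libraries, with no test. For YAB3 they were AT3G25970, AT2G36410, AT1G10640, AT5G49750 and AT5G45670, with r from 0.982 to 0.994. In mature leaves AT3G25970 and AT5G49750 were at 3.20 and 3.40 on the log2 scale, near the lowest value that the pseudocount allows. AT1G10640 was at 8.48, 8.64 and 8.71 on the log2 scale in younger apices, older apices and expanding leaves and at 5.10 in mature leaves, a deeper drop than that of YAB3. Over the arrays the rank correlation of these genes with YAB3 was lower, with Spearman's rho from 0.524 to 0.857.

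For YAB5 the most similar genes were LrgB, NdhN, AT5G41050, AT3G48460 and AT5G38520 (r from 0.946 to 0.973, rho from 0.81 to 0.905). LrgB encodes a plastid envelope transporter of photorespiration, and NdhN a subunit of the chloroplast NADH dehydrogenase-like complex. NdhN was at 8.999 and 8.25 in younger and older apices and at 9.83 and 10.1 in expanding and mature leaves, with its lowest value in older apices as for YAB5. For AGO7 they were AT3G03150, AT5G19860, AT5G18490, SAP and AT4G16790, with a lower r of 0.887 to 0.946 (rho from 0.81 to 0.952). Of these, AT5G18490, SAP and AT4G16790 did not pass the F test of limma (adjusted p = 0.069, 0.19 and 0.23). SAP and AT4G16790 were weakly measured, with group means down to 3.79 and 3.50 in expanding leaves. AT3G03150, far brighter than AGO7, was at 10.06 in younger apices, 9.48 in older apices, 9.18 in expanding leaves and 10.25 in mature leaves.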

How the data were processed

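Total RNA of 8 samples was hybridised to ATH1 arrays. The deposited table holds linear intensity values of 22810 probe sets, made by the authors with MAS5, as the submitters' processing notes name it. Every array has a median of 50; the step that set it is not given in the sources used here. The 64 control probe sets were left out, and each array was multiplied by 0.757 to 1.14 to bring its 2% trimmed mean to 132.7, the median of the arrays, because trimmed means differed 1.5-fold. A pseudocount of 7.7 (percentile 20) was added before log2. Probe sets above percentile 30 of their array on at least 2 arrays were kept. Names came from a platform annotation of 14016 probe sets, of which 503 with several genes were left out, and 13436 of 13513 matched RefSeq (TAIR10.1, names only); 8730 stayed unnamed. The probe set with the highest mean stood for each gene.

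Differences between groups came from limma 3.58.1 (R 4.3.3) (all arrays in 1 fit, intensity trend, 4 residual and 6.22 prior degrees of freedom, two-sided). Of these steps only the limma fit was tested on simulated data, in the comparison of mature with expanding leaves. Alternatives covered scaling, pseudocount, filter, trend, robust fit, groups fitted, replicate block, every probe set and leaving out each array. The members and lists were chosen with earlier results of these data known. The genes named are the 3 members, their 5 most similar genes and the tested members of the lists; outside that rule, the untested AGO8, CLV3 and UFO and the added leaf shape genes are also named.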

Additional observations from a re-analysis of the deposited data

How the results depend on the processing

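The 3 falls of YAB3 in mature leaves and its F test kept their call under every alternative run: without 1 array the changes were -1.38 to -1.30 against expanding leaves and -1.36 to -1.19 against younger apices, and with equal array medians that against older apices was -0.80 in place of -1.30. With equal array medians YAB3 changed by -0.084 between the apices, YAB5 by 0.30 from expanding to mature leaves and by 0.82 from younger apices to mature leaves (now past the threshold), and AGO7 by 0.27 in the latter, with an F test adjusted p of 0.045. With quantile normalization the values were 0.11 for YAB5 from expanding to mature leaves, 0.28 for AGO7 from younger apices to mature leaves, and an F test adjusted p of 0.042 for AGO7. Scaling sets the level of whole arrays: the all-gene median change from expanding to mature leaves was -0.27, against 0.04 with equal medians. AGO7 from expanding to mature leaves was 0.73 with the pseudocount at percentile 40, and its change of 1.35 did not pass without a filter. The rise of YAB5 from older apices to expanding leaves, 1.03, did not pass without a filter or without the intensity trend. The cause of these changes was not tested.

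Without 1 array, YAB3 ran from -0.059 to 0.11 between the apices, from -0.027 to 0.10 from older apices to expanding leaves and from -0.021 to 0.15 from younger apices to expanding leaves. YAB5 ran from 0.85 to 1.1997 from older apices to expanding leaves and from -0.081 to 0.036 from expanding to mature leaves, and its F test adjusted p from 0.0091 to 0.14. AGO7 ran from 0.98 to 1.71 from expanding to mature leaves and from -0.60 to 0.48 from younger apices to mature leaves, and its F test adjusted p from 0.013 to 0.21. A group left with 1 array is assumed to vary like the others, and a lost call can reflect fewer degrees of freedom.

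With replicate number as a block (replicate block) the change of AGO7 from expanding to mature leaves, 1.35, had an adjusted p of 0.052, and no other call of the 3 genes changed. What arrays of the same number share beyond the number is not stated. The correlation of their deviations across genes was 0.31 between older apices and expanding leaves, the groups of the same age. Between the other groups it ran from -0.09 to 0.13, and the source of the 0.31 was not tested. The number of genes called between the apices was 254, against 90 without a filter, 64 without the trend, 28 with only the groups compared and 27 to 1786 without 1 array. From older apices to expanding leaves it was 624, against 354 without a filter, 341 without the trend and 95 to 1218 without 1 array. From younger apices to expanding leaves it was 966, against 349 with only the groups compared and 319 to 1771 without 1 array. Without 1 array it was 484 to 3189 from expanding to mature leaves (2118 with all), 1416 to 3593 from younger apices (3196) and 1490 to 4088 from older apices (3226) to mature leaves, and 1498 to 5105 for the F test (3499).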
